A study of Mus musculus with 4 samples.

Results

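The genes described here are 10 negative regulators of MAP kinase signalling, the phosphatase genes *Dusp1*, *Dusp2*, *Dusp4*, *Dusp5*, *Dusp6* and *Dusp10* and the Sprouty and Spred genes *Spry1*, *Spry2*, *Spred1* and *Spred2*, out of 21926 genes in the count tables. They were chosen by symbol, as a group whose levels were to be followed through thymocyte stages, and earlier results of the same libraries were known when they were chosen, among them genotype ratios of *Dusp2* and *Dusp5*. Their differences are therefore given as a description with no test. All 10 symbols were in the tables of both libraries.

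Single-cell RNA sequencing was done on unsorted thymus cells of 2 mice, both 5 weeks old and both labelled female, with 1 library per genotype and one batch label for both. The WT library came from an *Eif4g2* flox/flox mouse without Cre. The *Eif4g2* cKO library came from a CD4-Cre; *Eif4g2* flox/flox mouse, so both mice carried the floxed alleles and only the second carried the transgene. *Cd4*-Cre is known to act from about the CD4 CD8 double-positive (DP) stage onward, so earlier double-negative (DN) cells are largely outside its reach, and cells of other lineages are not its target. A library of one mouse is not a replicated group. No p-value or standard error is given for any difference between the libraries, and every interval below is a 95% interval that covers counting error only.

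The WT library held 6014 cells with 18355050 UMIs (median 1733.5 per cell) and the other 4335 cells with 18056277 UMIs (median 2140.0), where a UMI is a molecular tag that counts one captured transcript. The filters of the study (at least 50 genes and at most 10% mitochondrial UMIs) left 6012 and 4335 cells, more than its text gives after quality control. *Eif4g2*, the targeted gene, was at 223 CPM (its UMIs per 1000000 UMIs of the summed cells) in WT against 274 CPM in *Eif4g2* cKO. In the stages described below it was at 129 and 209 CPM in DN-like and 259 and 522 CPM in DP-like cells, WT first. It was at 261 and 398 CPM in early post-selection-like and 179 and 316 CPM in mature SP-like cells. Cycling-like cells had the other order, at 218 and 186 CPM. The assay tags the 3′ end of transcripts. Where the deleted part of the gene lies relative to the tag was not examined, so these values check nothing. Of 3 genes on the Y chromosome (*Kdm5d*, *Uty*, *Eif2s3y*), 2542 UMIs were counted in WT cells and 1 in *Eif4g2* cKO cells, which goes against the female label of the WT library. Sex, mouse and genotype cannot be told apart here. Since both libraries are labelled female, exchanging their labels would not remove this conflict. Neither the *Eif4g2* values nor the Y-linked counts show which library is which genotype. Whether the libraries were exchanged was not tested, and an exchange would turn the sign of every ratio of *Eif4g2* cKO to WT. The mature SP-like cells were 8.75% of T lineage cells in the library labelled WT and 3.48% in that labelled *Eif4g2* cKO. The files number the cells, and 1055 of these names occurred in both libraries. The names hold no barcode sequence, so a shared name was not read as a shared cell.

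Stages were rebuilt from clusters of cells with marker genes, with the 10 genes and the pathway genes used below kept out of the clustering. There were 95 WT and 118 *Eif4g2* cKO DN-like cells, 1001 and 1321 cycling-like cells, 3366 and 2113 DP-like cells, 872 and 588 early post-selection-like cells (led by *Itm2a*, *Cd2*, *Cd5* and *Tox*) and 517 and 150 mature single-positive-like (mature SP-like) cells (led by *Klf2*, *Ms4a4b*, *Ccr7* and *S1pr1*). A further 56 and 15 cells were NKT or gamma delta T-like, 61 and 26 were antigen-presenting-like and 44 and 4 were erythroid-like. The DP-like cells of the libraries sat mostly in different clusters, cluster 0 holding 168 WT and 1865 *Eif4g2* cKO cells, cluster 1 holding 1788 and 120, and cluster 2 holding 1410 and 128.

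When a T cell receptor binds its ligand, Ras activates the kinase chain that ends in ERK, and stress or receptor signals also activate the kinases JNK and p38. ERK induces the genes of its own restraint within a short time, so that transcripts of dual-specificity phosphatases and of Sprouty genes are widely read as a record of recent ERK activity. In the thymus this chain takes part in positive selection, when DP cells that recognise self-peptide move on to the early post-selection state. *Dusp1*, *Dusp2*, *Dusp4* and *Dusp5* encode inducible phosphatases of the nucleus, DUSP5 acting on ERK and DUSP1 on JNK and p38 as well. *Dusp6* encodes the ERK phosphatase of the cytoplasm, and *Dusp10* encodes a phosphatase that acts mainly on JNK and p38. Sprouty and Spred proteins restrain the pathway further up, and Spred proteins recruit the Ras inactivator neurofibromin.

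The 10 genes differ widely in the genome span of their RefSeq annotation on the GRCm38 mouse build. *Dusp2* (chr2:127336159-127338377) spans 2.22 kb, *Dusp1* (chr17:26505591-26508472) 2.88 kb, *Dusp6* (chr10:99263231-99267489) 4.26 kb, *Spry1* 4.65 kb and *Spry2* 4.87 kb. *Dusp4* spans 12.3 kb and *Dusp5* (chr19:53529145-53541809) 12.7 kb. *Dusp10* (chr1:184034381-184075636) spans 41.3 kb, *Spred1* (chr2:117121071-117182279) 61.2 kb and *Spred2* (chr11:19924442-20024026) 99.6 kb. Long genes as a whole had lower ratios of *Eif4g2* cKO to WT, so the span is given beside the member ratios further on.

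The promoter table of RefSeq (GRCm38.p6) held 300 bases around the start of 9 of the 10 genes, *Dusp4* having no entry. *Dusp1*, *Dusp2* and *Dusp5* are shown because they are the inducible nuclear phosphatase genes with enough UMIs for the comparisons below. Each line gives the 250 bases that end at the transcription start, read 5′ to 3′ on the strand of the gene. Capitals mark the cAMP response element half-site TGACG on either strand in *Dusp1* and *Dusp5*, the 2 CArG boxes of *Dusp5* (the serum response factor motif) and the GC box GGGCGG on either strand in *Dusp2*.

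*Dusp1* (chr17:26508473-26508722, minus strand): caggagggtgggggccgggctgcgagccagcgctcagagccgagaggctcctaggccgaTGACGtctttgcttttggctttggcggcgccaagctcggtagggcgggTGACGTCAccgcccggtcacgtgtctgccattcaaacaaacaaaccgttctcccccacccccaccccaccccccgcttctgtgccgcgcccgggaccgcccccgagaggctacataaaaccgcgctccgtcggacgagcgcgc

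*Dusp2* (chr2:127335909-127336158, plus strand): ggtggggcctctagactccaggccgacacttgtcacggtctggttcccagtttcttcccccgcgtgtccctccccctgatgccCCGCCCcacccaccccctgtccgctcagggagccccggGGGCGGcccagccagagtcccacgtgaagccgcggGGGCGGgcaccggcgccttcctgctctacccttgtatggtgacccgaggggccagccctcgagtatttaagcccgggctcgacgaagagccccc

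*Dusp5* (chr19:53528895-53529144, plus strand): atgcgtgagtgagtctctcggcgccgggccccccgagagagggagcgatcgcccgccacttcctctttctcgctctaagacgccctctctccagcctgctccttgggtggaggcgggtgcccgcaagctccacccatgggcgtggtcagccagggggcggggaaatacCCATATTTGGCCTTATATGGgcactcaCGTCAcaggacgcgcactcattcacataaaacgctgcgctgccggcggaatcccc

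The full response element TGACGTCA was in the window of *Dusp1* and of 1.79% of all 32851 promoters, and its half-site, which overlaps it, was in 4 of the 9 members and in 20.8% of promoters. The CArG box was in *Dusp5* and 1.63% of promoters. The GC box was in 7 of the 9 members and in 35.7% of promoters. No member held the AP-1 element TGACTCA (5.2% of promoters), the EGR element GCGTGGGCG (0.612%) or the ETS element CCGGAAGT (3.89%) in this window. Both strands were searched. A match says only that the letters are there.

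*Dusp2*, a nuclear phosphatase gene of activated lymphocytes also known as PAC-1, had the highest ratio of *Eif4g2* cKO to WT among the members with at least 50 UMIs in each of the 5 stages. In early post-selection-like cells it was at 96.6 CPM in WT (83.3 to 111, from 187 UMIs) and at 316 CPM in *Eif4g2* cKO (287 to 346, from 464 UMIs), a 3.27-fold difference and a log2 ratio of 1.71 (1.46 to 1.96). Among the 6932 genes that reached 50 UMIs in that class, summed over the libraries, it ranked 5 from the top. The share of early post-selection-like cells with a *Dusp2* UMI was 14.9% in WT against 37.1% in *Eif4g2* cKO. After each cell was thinned to 1000 UMIs these shares were 8.03% and 23.3%. Cells with at least 2 of its UMIs numbered 37 of 872 and 101 of 588.

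The same direction was seen in the other stages. *Dusp2* was at 44.8 and 139 CPM in DN-like cells (log2 ratio 1.63, 0.99 to 2.33), at 23.7 and 45.2 CPM in cycling-like cells (0.94, 0.69 to 1.19), at 49.4 and 117 CPM in DP-like cells (1.24, 1.01 to 1.47) and at 83.5 and 156 CPM in mature SP-like cells (0.91, 0.55 to 1.26), WT first. The intervals of the libraries overlapped in none of the 5 stages. The DN-like cells, which lie before the stage at which *Cd4*-Cre is known to act, are among them. Outside the stages, the antigen-presenting-like cells had 10 *Dusp2* UMIs in WT and 9 in *Eif4g2* cKO (49.3 and 146 CPM, log2 ratio 1.57, 0.09 to 3.02), and the NKT or gamma delta T-like cells 28 and 15 (133 and 185 CPM, 0.47, −0.54 to 1.42). The WT erythroid-like cells, with a median of 6089.5 UMIs, had 0 *Dusp2* UMIs in 44 cells, which allows a share of up to 6.82% of cells with a UMI. In the early post-selection-like cells, markers of these other cells were higher in WT. The 22 antigen-presenting markers summed to 87.8 CPM in WT (17 detected) and 33.3 CPM in *Eif4g2* cKO (13 detected), and the erythroid markers to 277 and 13.6 CPM. In the DN-like cells the antigen-presenting markers had the other order, at 77.0 CPM in WT (10 detected) and 302 CPM in *Eif4g2* cKO (13 detected). The erythroid markers were at 202 and 102 CPM there. The part of these transcripts in the levels of the 10 genes, the DN-like values of *Dusp2* included, was not tested.

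Within the clusters of the DP-like class, which differ in their share of each library, *Dusp2* was at 70.2 and 119 CPM in cluster 0, at 55.0 and 82.1 CPM in cluster 1 and at 38.2 and 127 CPM in cluster 2, WT first. It was higher in the *Eif4g2* cKO library in each of the 3, with intervals that did not overlap in cluster 2 (30.1 to 47.9 against 86.2 to 180.0).

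**Figure D1:**
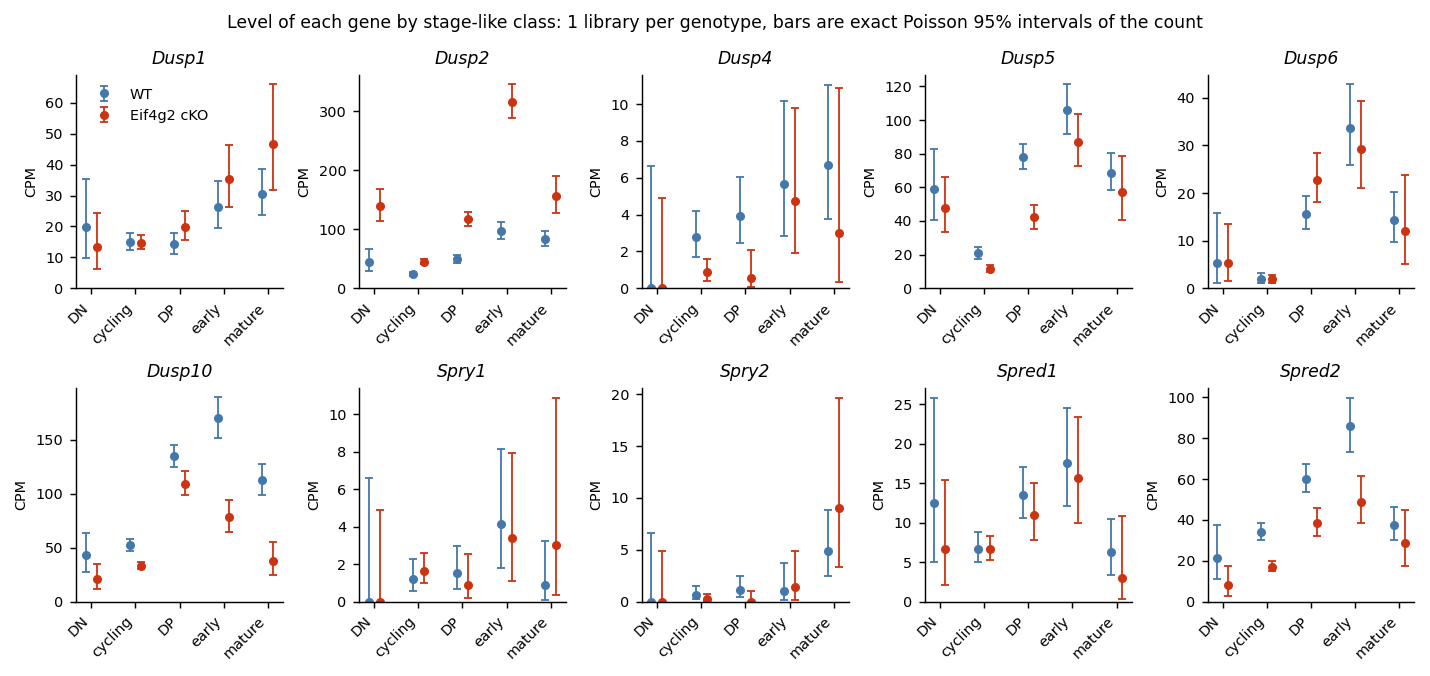
Level in CPM (vertical axes, from 0) of each of the 10 genes in 5 stage-like classes (horizontal axes), with 1 WT library in blue and 1 *Eif4g2* cKO library in red. Points are summed UMIs over the class and bars are exact Poisson 95% intervals. *Dusp2* is higher in red in all 5 classes, with its top at 316 CPM in the early post-selection-like cells, while *Dusp10* is lower in red in all 5 and falls to 37.6 CPM in the mature SP-like cells.

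*Dusp5*, the gene of the ERK-specific nuclear phosphatase, had the opposite order of libraries, with intervals clear of 0 in the DP-like and cycling-like cells only. In DP-like cells it was at 78.1 CPM in WT (70.7 to 85.9, from 416 UMIs) and 42.1 CPM in *Eif4g2* cKO (35.5 to 49.5, from 146 UMIs), a log2 ratio of −0.89 (−1.17 to −0.62), and in cycling-like cells at 20.8 and 11.6 CPM (−0.84, −1.18 to −0.50). In early post-selection-like cells the levels were 106 and 87.0 CPM (−0.28, −0.61 to 0.04) and in mature SP-like cells 68.8 and 57.1 CPM (−0.27, −0.82 to 0.25). In DN-like cells they were 59.1 and 47.7 CPM (−0.31, −1.03 to 0.42). The intervals of the early post-selection-like, mature SP-like and DN-like ratios hold 0. In the DP-like clusters 0, 1 and 2 *Dusp5* was at 51.5, 83.5 and 72.5 CPM in WT against 39.5, 59.7 and 53.2 CPM in *Eif4g2* cKO, with intervals that overlapped in each cluster.

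*Dusp1*, the immediate-early phosphatase gene, was at 14.3 CPM in WT against 19.9 CPM in *Eif4g2* cKO in DP-like cells, at 26.3 and 35.4 CPM in early post-selection-like cells and at 30.4 and 46.6 CPM in mature SP-like cells. The log2 ratios were 0.48 (−0.01 to 0.97), 0.42 (−0.16 to 1.01) and 0.62 (−0.04 to 1.25), so each interval held 0. In cycling-like cells the levels were 15.0 and 14.7 CPM (−0.02, −0.38 to 0.33). *Dusp1* is also a gene that rises when tissue is dissociated. A list of 14 dissociation and heat stress genes summed to 3626 CPM in WT against 4137 CPM in *Eif4g2* cKO in the early post-selection-like cells and to 2746 and 3315 CPM in the DP-like cells, and its part in the *Dusp1* values was not tested.

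*Dusp4*, the fourth inducible nuclear gene, had few UMIs. Over all T lineage cells it had 68 in WT and 22 in *Eif4g2* cKO (3.80 and 1.22 CPM, log2 ratio −1.64, −2.40 to −0.92). In DP-like cells it had 21 and 2 UMIs (3.94 and 0.576 CPM), and the ratio had an interval from −5.91 to −0.74. In early post-selection-like cells it had 11 and 7 UMIs (5.68 and 4.76 CPM, −0.26, −1.86 to 1.24).

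*Dusp6*, the gene of the cytoplasmic ERK phosphatase, was at 15.6 CPM in WT against 22.8 CPM in *Eif4g2* cKO in DP-like cells, a log2 ratio of 0.55 (0.08 to 1.01). In early post-selection-like cells it was at 33.6 and 29.2 CPM, with an interval that held 0 (−0.20, −0.79 to 0.38) and a sign that turned when ratios were centred on the median of all genes (0.05). Cycling-like cells had only 15 and 22 UMIs of it (1.97 and 1.91 CPM).

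*Dusp10*, the JNK and p38 phosphatase gene, was lower in the *Eif4g2* cKO library in each of the 5 stages, with log2 ratios between −0.30 and −1.58. It was at 135 CPM in WT (125 to 145, from 718 UMIs) and 109 CPM in *Eif4g2* cKO (98.5 to 121, from 379 UMIs) in DP-like cells, a log2 ratio of −0.30 (−0.49 to −0.12). This stood beside a median of −0.18 over all genes and of −0.22 over genes of 20 to 50 kb in that class. Centred on the median of all genes, the DP-like ratio of *Dusp10* was −0.12. In early post-selection-like cells it was at 170.0 CPM (152 to 189) and 78.2 CPM (64.6 to 93.9), a log2 ratio of −1.12 (−1.44 to −0.81). In mature SP-like cells it was at 113 CPM and 37.6 CPM, from 252 and 25 UMIs, a log2 ratio of −1.58 (−2.24 to −0.99). In cycling-like cells it was at 52.2 and 33.0 CPM (−0.66, −0.87 to −0.45), and in DN-like cells it had 24 and 16 UMIs (−1.02, −2.03 to −0.05).

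The DP-like order of the libraries for *Dusp10* was not seen within clusters. It was at 93.6 and 101 CPM in cluster 0, at 142 and 149 CPM in cluster 1 and at 128 and 160 CPM in cluster 2, WT first, so that in each cluster the *Eif4g2* cKO value was the higher one, with overlapping intervals. The clusters were built from the same cells, and each held mostly cells of a single library. Many cells of that library are thus set against few of the other that were grouped with them. The values are a description, and they do not show where the difference lay. The early post-selection-like and mature SP-like cells were each 1 cluster with both libraries in it, but the make-up of these classes also differed between the libraries. In the mature SP-like cells the summed mature SP markers were at 3075 CPM in WT against 2319 CPM in *Eif4g2* cKO, the cycling markers at 1506 and 2068 CPM and the regulatory T cell markers at 523 and 292 CPM. In the early post-selection-like cells the markers of that class itself were at 6223 and 4370 CPM. Their part in the ratios of *Dusp10* and the other members was not tested.

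**Figure D2:**
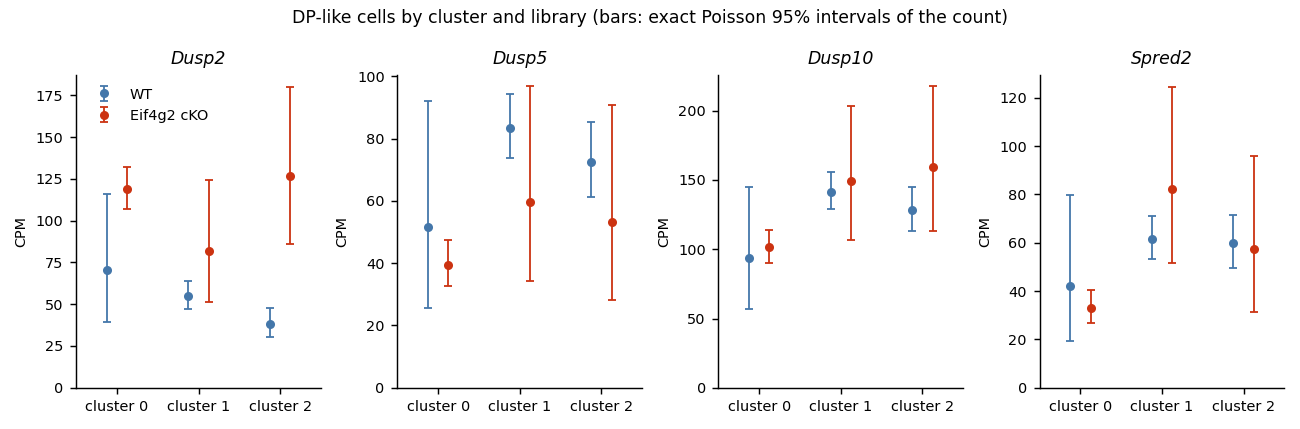
Level in CPM (vertical axes, from 0) of *Dusp2*, *Dusp5*, *Dusp10* and *Spred2* in the 3 DP-like clusters (horizontal axes), with WT in blue, *Eif4g2* cKO in red and exact Poisson 95% intervals as bars. *Dusp2* is higher in red in each cluster, while for *Dusp10* the red points lie slightly above the blue ones (149 against 142 CPM in cluster 1) although the sum over the class is lower in *Eif4g2* cKO.

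Of the Sprouty and Spred genes, *Spred2* was the one lower in *Eif4g2* cKO with the tightest intervals. It was at 60.2 CPM in WT against 38.6 CPM in *Eif4g2* cKO in DP-like cells (log2 ratio −0.64, −0.94 to −0.35), at 34.0 and 17.2 CPM in cycling-like cells (−0.99, −1.26 to −0.72) and at 85.8 and 49.0 CPM in early post-selection-like cells (−0.81, −1.23 to −0.40). In mature SP-like cells it had 84 and 19 UMIs (−0.39, −1.19 to 0.34). In DP-like clusters 0, 1 and 2 its levels were 42.1 and 33.1 CPM, 61.7 and 82.1 CPM, and 59.9 and 57.3 CPM, so the direction over the class was not the direction in every cluster.

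*Spred1* was at 13.5 and 10.9 CPM in DP-like cells (−0.30, −0.91 to 0.28) and at 17.6 and 15.6 CPM in early post-selection-like cells (−0.17, −0.998 to 0.64). Both intervals hold 0, and the second ratio was 0.08 after the same centring. *Spry1*, an ERK-induced antagonist, was at 4.13 and 3.40 CPM in early post-selection-like cells and at or below 3.01 CPM in the other stages, and 7 of its 8 UMIs in the WT early post-selection-like cells were in cells that also held a UMI of *Egr1*, *Egr2* or *Nr4a1*. It had 27 and 29 UMIs over all T lineage cells (1.51 and 1.61 CPM, 0.10, −0.71 to 0.91). *Spry2* had 33 and 16 (1.85 and 0.890 CPM, −1.05, −2.01 to −0.15), and in DP-like cells it had 6 UMIs in the first library and 0 in the second, where 0 UMIs allow up to 0.864 CPM. In cycling-like cells it was at 0.657 and 0.260 CPM. At small counts, the order was the other in early post-selection-like (1.03 and 1.36 CPM), mature SP-like (4.91 and 9.02 CPM) and NKT or gamma delta T-like cells (42.8 and 61.5 CPM). The mature SP-like and NKT or gamma delta T-like cells were 8.75% and 0.948% of T lineage cells in WT. In *Eif4g2* cKO they were 3.48% and 0.348%. The part of this make-up in the summed *Spry2* ratio was not tested.

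Read as counts, with a gene called when it had at least 50 UMIs over both libraries and a log2 ratio beyond 0.5, the members were few and mixed. In the early post-selection-like cells 7 members had enough UMIs, of which 1 (*Dusp2*) was higher and 2 (*Dusp10* and *Spred2*) were lower in *Eif4g2* cKO, where 7.62% of all genes with enough UMIs were higher and 35.4% lower. The same shares of all genes are given as the background in what follows. In DP-like cells 2 of 7 were higher (*Dusp2* and *Dusp6*, background 8.25%) and 2 lower (*Dusp5* and *Spred2*, background 29.5%). Of genes of up to 5 kb, the span class of *Dusp2* and *Dusp6*, 21.4% were higher there. In the span classes of *Dusp5* (5 to 20 kb) and *Spred2* (50 to 100 kb), 13.3% and 50.6% were lower. In cycling-like cells 1 of 6 was higher (background 3.22%) and 3 lower (*Dusp5*, *Dusp10* and *Spred2*, background 35.1%). In mature SP-like cells 2 of 5 were higher (*Dusp2* and *Dusp1*, the latter with an interval that holds 0, background 10.6%) and 1 lower (*Dusp10*, background 36.3%). Of mature SP-like genes of up to 5 kb, the span class of *Dusp2* and *Dusp1*, 18.7% were higher. In the span class of *Dusp10* (20 to 50 kb), 35.8% were lower. In DN-like cells 1 of 2 was higher (background 9.5%) and 0 lower (background 27.8%). Over all T lineage cells 1 of 9 was higher (background 5.18%) and 4 lower (background 41.2%), with the larger cycling share of the *Eif4g2* cKO library (30.7% against 16.9% of T lineage cells) inside that sum. With ratios centred on the median of all genes, 3 members were higher and 1 lower in DP-like cells and 2 were higher and 2 lower in early post-selection-like cells. The backgrounds above belong to uncentred ratios, and none is given for these centred counts.

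Lower values were thus common in the *Eif4g2* cKO library, and the median member ratio of −0.20 in the early post-selection-like cells stood beside a median of −0.25 over all 6932 genes tested. The lower values followed gene span. In the early post-selection-like cells the median log2 ratio was 0.13 over genes of up to 5 kb, −0.01 from 5 to 20 kb, −0.29 from 20 to 50 kb, −0.60 from 50 to 100 kb and −0.92 above 100 kb. Against the class of its own span, *Spred2* at −0.81 stood beside −0.60, *Spred1* at −0.17 beside −0.60, *Dusp10* at −1.12 beside −0.29 and *Dusp2* at 1.71 beside 0.13. What part span had in these ratios was not tested.

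**Figure D3:**
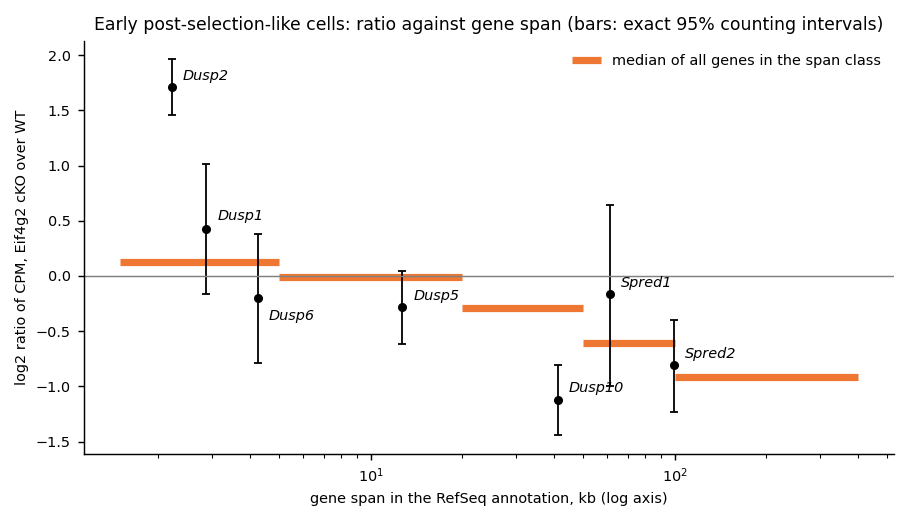
Log2 ratio of *Eif4g2* cKO to WT in early post-selection-like cells (vertical axis) against the genome span of the gene in kb (horizontal log axis), with black points and exact 95% counting intervals for the 7 members with at least 50 UMIs and orange lines for the median of all genes in each span class. *Dusp2* at 1.71 lies far above its line at 0.13, *Dusp10* at −1.12 below its line at −0.29, and *Spred2* at −0.81 near its line at −0.60.

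**Figure D4:**
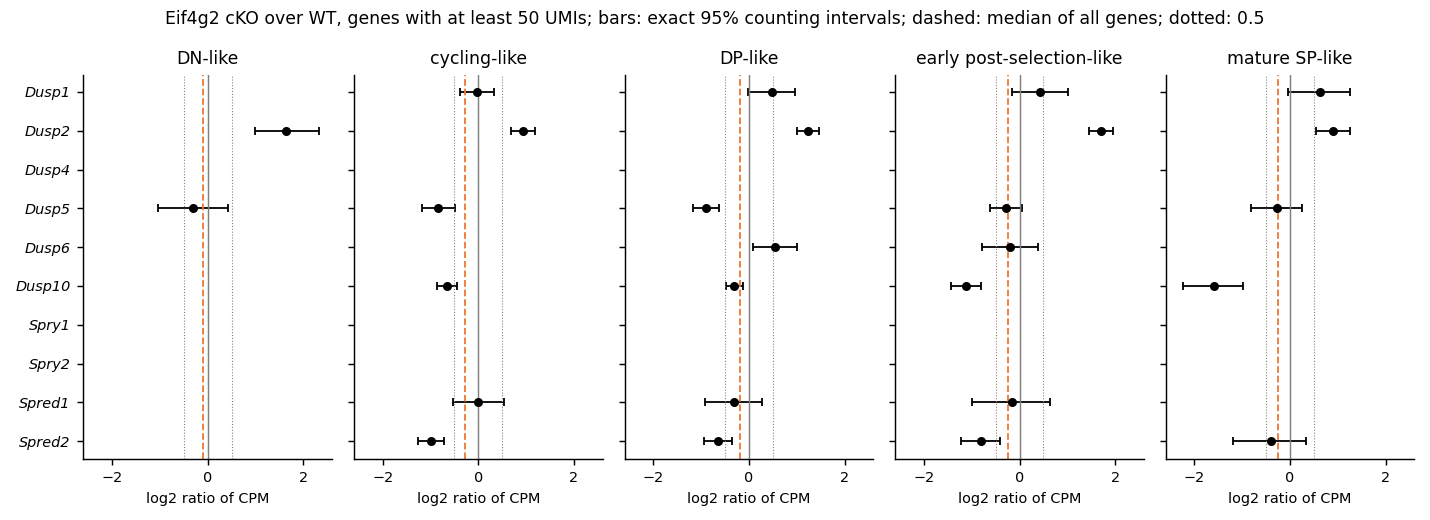
Log2 ratio of *Eif4g2* cKO to WT (horizontal axes) for the members with at least 50 UMIs over both libraries, by stage-like class, with exact 95% counting intervals as bars, the median of all genes as a dashed line and the 0.5 limits as dotted lines. *Dusp2* is right of the upper limit in all 5 panels, and *Dusp10* is left of the lower limit in the cycling-like, early post-selection-like and mature SP-like panels.

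Between DP-like and early post-selection-like cells, no member with enough UMIs was lower by over 0.5 after selection. From DP-like to early post-selection-like cells of WT, *Dusp6* had a log2 ratio of 1.11 (0.62 to 1.59), *Dusp2* of 0.97 (0.69 to 1.24), *Dusp1* of 0.89 (0.34 to 1.42), *Spred2* of 0.51 (0.23 to 0.78) and *Dusp5* of 0.44 (0.19 to 0.68). In *Eif4g2* cKO the ratios were 1.44 (1.24 to 1.63) for *Dusp2*, 1.05 (0.70 to 1.40) for *Dusp5*, 0.83 (0.28 to 1.37) for *Dusp1*, 0.36 (−0.21 to 0.92) for *Dusp6* and 0.34 (−0.09 to 0.77) for *Spred2*. In each library 4 of 7 members with enough UMIs were higher by over 0.5, *Dusp6*, *Dusp2*, *Dusp1* and *Spred2* in WT and *Dusp2*, *Dusp5*, *Dusp1* and *Spred1* (0.51, with an interval from −0.30 to 1.30 that holds 0) in *Eif4g2* cKO, where 11.9% of genes were in WT and 7.76% in *Eif4g2* cKO, and 0 were lower, where 28.0% and 31.9% were. Only *Dusp1* and *Dusp2* were on both lists. The median member ratio was 0.51 in both libraries, beside −0.20 and −0.27 over all genes. Centred on those medians, which raised every ratio by 0.20 in WT and 0.27 in *Eif4g2* cKO, 7 of 7 and 6 of 7 members were higher by over 0.5. The share of all genes after that centring is not given, so these counts have no background beside them. Summed over the 10 genes, the level was 372 CPM in DP-like and 547 CPM in early post-selection-like cells of WT, and 362 and 619 CPM in *Eif4g2* cKO.

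*Dusp10* was the only member with enough UMIs whose step differed in sign. It was higher in the early post-selection-like than in the DP-like cells of WT (log2 ratio 0.33, 0.14 to 0.53) and lower in those of *Eif4g2* cKO (−0.48, −0.80 to −0.18). Centred on the median of all genes at this step (−0.20 in WT and −0.27 in *Eif4g2* cKO), the ratios were 0.54 and −0.21. The upper limit of the *Eif4g2* cKO interval became positive with that shift. The difference of these steps was not tested, since each library is 1 mouse.

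Most of the listed ERK-induced genes with enough UMIs were also higher at this step in both libraries. The list took no part in the clustering. Even so, *Nr4a1*, *Cd69* and *Egr1* were among the leading genes of the early post-selection-like class. Their rise is thus part of what sets that class apart. A list of 16 ERK-induced response genes had 11 with enough UMIs in WT, of which 10 were higher by over 0.5 and 1 lower, and 10 in *Eif4g2* cKO, of which 8 were higher and 1 lower, beside the 11.9% and 7.76% of all genes that were higher and the 28.0% and 31.9% that were lower. Their median log2 ratios were 1.56 and 1.86. *Egr1*, a transcription factor of the first wave, was at 25.0 CPM in DP-like and 184 CPM in early post-selection-like cells of WT, and at 29.7 and 232 CPM in *Eif4g2* cKO. The receptor *Cd69*, itself one of the markers of the class, was at 14.1 and 127 CPM in WT against 19.0 and 160.5 CPM in *Eif4g2* cKO.

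Most members were lower in cycling-like than in DP-like cells. Of 7 members with enough UMIs 6 were lower than in DP-like cells in each library, where 53.1% of genes were lower in WT and 56.2% in *Eif4g2* cKO. The median member ratio was −1.06 in WT and −1.37 in *Eif4g2* cKO, beside −0.57 and −0.65 over all genes. *Dusp6* had the lowest ratio, −2.98 (−3.88 to −2.18) in WT and −3.58 (−4.33 to −2.88) in *Eif4g2* cKO, and *Dusp5* followed with −1.91 and −1.86. *Dusp1* was the exception in both libraries at 0.07 (−0.36 to 0.51) and −0.43 (−0.84 to −0.01). Cycling-like cells were also deeper, with a median of 5232 UMIs in WT and 6414 in *Eif4g2* cKO against 1404 and 1360 in DP-like cells.

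From early post-selection-like to mature SP-like cells most members were lower after the step. The median member ratio was −0.61 in WT and −0.89 in *Eif4g2* cKO, beside −0.31 and −0.28 over all genes. In WT 4 of 6 were lower by over 0.5 (background 32.3%), namely *Dusp6* (−1.23), *Spred2* (−1.19), *Dusp5* (−0.62) and *Dusp10* (−0.59). In *Eif4g2* cKO 5 of 6 were lower (background 32.5%), namely the same 4 and *Dusp2*, which was at −1.01 (−1.33 to −0.70) there and at −0.21 (−0.51 to 0.09) in WT. Of these 6 members with enough UMIs, *Dusp1* alone had a positive ratio in both, 0.20 and 0.40, with intervals that hold 0. *Spry2*, with too few UMIs to be counted here, also had positive ratios. They were 2.25 (0.05 to 5.46) in WT and 2.73 (0.25 to 6.07) in *Eif4g2* cKO.

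*Spry2* had its highest level in one small class, which held 9 of its 33 T lineage UMIs in WT and 5 of its 16 in *Eif4g2* cKO. It had 9 UMIs in 8 of 56 NKT or gamma delta T-like cells of WT (42.8 CPM, 19.6 to 81.3) and 5 UMIs in 5 of 15 such cells of *Eif4g2* cKO (61.5 CPM, 19.98 to 144). In the mature SP-like cells, the next in order, it was at 4.91 CPM (11 UMIs) and 9.02 CPM (6 UMIs), and the intervals of these classes did not overlap in either library, by a wide gap in WT (2.45 to 8.79 against 19.6 to 81.3) and narrowly in *Eif4g2* cKO (3.31 to 19.64 against 19.98 to 144). The class was led by *S100a6*, *Lgals3*, *Ccl5*, *Cxcr6* and *Il2rb*, and UMIs were found of 9 of its 9 markers in WT and of 8 in the other library. Antigen-presenting markers summed to 586 and 1773 CPM in the class, with 13 of 22 detected in WT and 7 in *Eif4g2* cKO. The antigen-presenting-like cells themselves had 0 *Spry2* UMIs in 61 WT and 26 *Eif4g2* cKO cells. The counts are small, and the shares of cells with a UMI were 7.14% and 6.67% after each cell was thinned to 1000 UMIs.

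Within a class, cells can be grouped further by whether they hold a UMI of the response genes *Egr1*, *Egr2* or *Nr4a1*. Of the early post-selection-like cells, 279 of 872 in WT and 257 of 588 in *Eif4g2* cKO did. *Dusp2* was at 166 CPM in the WT cells with such a UMI and at 58.4 CPM in those without (log2 ratio 1.51, 1.07 to 1.95), and at 448 and 202 CPM in *Eif4g2* cKO (1.15, 0.87 to 1.44). *Dusp5* was at 149 and 82.5 CPM in WT (0.85, 0.44 to 1.26) and at 136 and 45.4 CPM in *Eif4g2* cKO (1.58, 1.01 to 2.18). *Spred2* had ratios of 0.62 (0.16 to 1.08) and 0.88 (0.16 to 1.62). These 3 genes were thus higher in the cells with a response UMI in both libraries.

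*Dusp1*, *Dusp6* and *Dusp10* did not share this pattern in both libraries. *Dusp1* had a ratio of 1.38 (0.53 to 2.26) in WT and −0.11 (−0.97 to 0.73) in *Eif4g2* cKO, and the difference was not tested. *Dusp10* was at 160 and 175 CPM in WT (−0.13, −0.47 to 0.21) and at 78.2 CPM in both groups of *Eif4g2* cKO (0.00, −0.56 to 0.55). *Dusp6* had ratios of 0.28 (−0.50 to 1.03) and −0.39 (−1.36 to 0.55). Of the members with enough UMIs 4 of 6 in WT (background 7.62%) and 3 of 5 in *Eif4g2* cKO (background 6.01%) were higher by over 0.5. The median depth of the groups was 2085 and 1766 UMIs in WT and 1989 and 1994 in *Eif4g2* cKO, cells with a response UMI first.

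**Figure D5:**
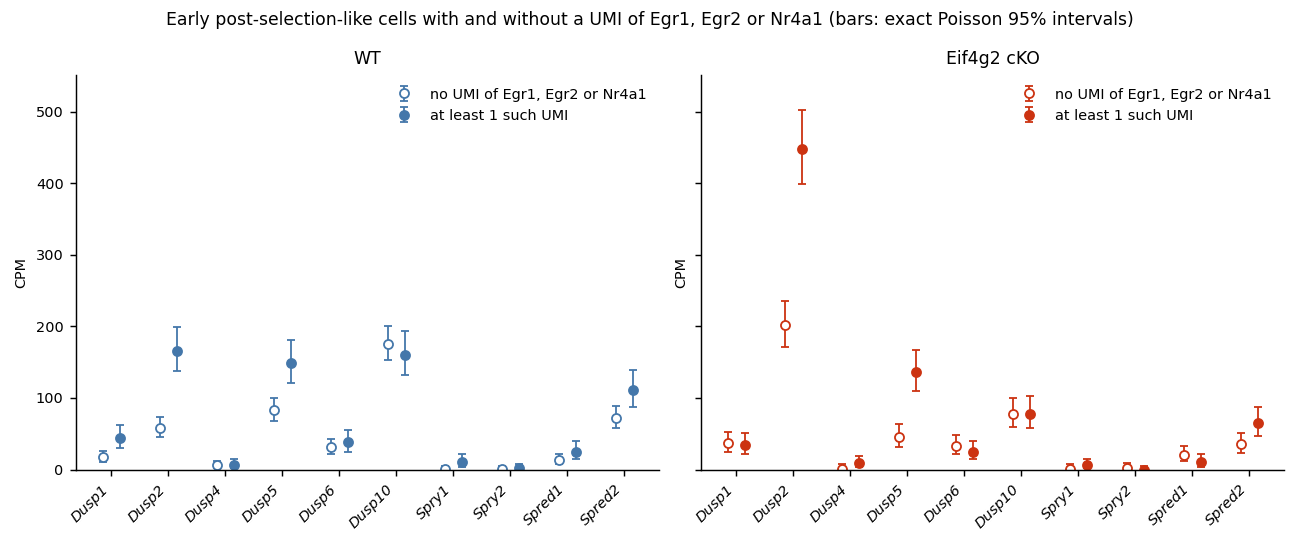
Level in CPM (vertical axis, from 0, shared) of the 10 genes in early post-selection-like cells with at least 1 UMI of *Egr1*, *Egr2* or *Nr4a1* (filled) and without one (open), for WT (left) and *Eif4g2* cKO (right), with exact Poisson 95% intervals as bars. *Dusp2*, *Dusp5* and *Spred2* are higher in the filled points of both panels, and *Dusp10* has nearly equal points in each (78.2 CPM for both in *Eif4g2* cKO).

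Over all T lineage cells that were not cycling-like, the same grouping gave 5 of 7 members higher in WT (background 7.43%) and 3 of 7 in *Eif4g2* cKO (background 6.02%). The libraries were also compared within each of these groups, whose make-up differed: of the cells with a response UMI, 279 of 587 were early post-selection-like in WT and 257 of 422 in *Eif4g2* cKO. *Dusp2* was at 129 CPM in WT against 329 CPM in *Eif4g2* cKO among cells with a response UMI (log2 ratio 1.35, 1.11 to 1.59), and at 54.9 and 131 CPM among cells without one (1.26, 1.08 to 1.43). The part of that make-up in these ratios was not tested. *Dusp10* had ratios of −0.90 (−1.27 to −0.54) and −0.58 (−0.74 to −0.42), and *Dusp5* of −0.30 (−0.61 to 0.01) and −0.75 (−0.98 to −0.52). Grouped by a *Cd69* UMI instead, *Dusp2* had ratios of 1.20 (0.87 to 1.54) in the cells with one and 1.35 (1.20 to 1.51) in those without.

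Mature SP-like cells can be split by coreceptor UMIs, at low counts. With only *Cd4* UMIs there were 79 WT and 22 *Eif4g2* cKO cells, and with only *Cd8a* or *Cd8b1* UMIs 205 and 52. *Dusp10* was at 175 CPM (50 UMIs) in the WT cells with *Cd4* UMIs and at 82.7 CPM (75 UMIs) in those with *Cd8* UMIs. In *Eif4g2* cKO it was at 31.6 CPM (2 UMIs) and 32.1 CPM (7 UMIs). *Dusp2* was at 119 and 78.3 CPM in WT against 190 and 184 CPM in *Eif4g2* cKO, so the *Dusp2* order of the libraries was the same in the cells with *Cd8* UMIs, where the upper limit of 98.7 CPM in WT lay below the lower limit of 131 CPM in *Eif4g2* cKO.

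Beyond the 10 genes, the family and the pathway were followed as lists in the early post-selection-like cells. Of 13 other dual-specificity phosphatase genes 3 had enough UMIs there, 0 were higher and 1 was lower in *Eif4g2* cKO (*Dusp12*, −0.54, −1.30 to 0.18). *Dusp19* had a ratio of 0.45 (−0.40 to 1.31). *Dusp11*, a phosphatase of RNA rather than of kinases, was at 145 and 109 CPM (−0.42, −0.71 to −0.13). *Dusp16*, like *Dusp10* a phosphatase gene of the JNK and p38 branch, had 33 and 7 UMIs there (17.0 and 4.76 CPM, −1.84, −3.26 to −0.64) and 76 and 29 in DP-like cells (−0.77, −1.44 to −0.14). It was picked out after its values were seen. *Spry3* had 0 UMIs in the 5 stages of both libraries, and *Spry4* and *Spred3* had at most 5 UMIs in any stage.

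No kinase or adaptor gene of the lists upstream was higher by over 0.5 in these cells. Of the genes with enough UMIs, 0 of 13 were higher and 5 lower in the list of Ras activation and restraint, 0 of 10 higher and 4 lower in that of the ERK cascade, and 0 of 13 higher and 9 lower in that of the p38 and JNK cascade, with the background of 7.62% and 35.4% given above. The lowest were the Ras inactivators *Rasa3* (−1.60) and *Nf1* (−1.08), the kinase genes *Braf* (−1.02) and *Rps6ka1* (−0.98) of the ERK cascade, and *Map3k5* (−1.53) and *Mapkapk3* (−1.36) of the stress branch. Most of these are long genes, *Rasa3* spanning 110 kb, *Nf1* 242 kb, *Braf* 122 kb and *Map3k5* 209 kb against 40.5 kb for *Rps6ka1* and 35.0 kb for *Mapkapk3*. In this class 59.0% of genes of 50 to 100 kb and 81.0% of longer ones were lower. Of the list genes over 50 kb, 4 of 8, 3 of 7 and 6 of 7 were lower, where 68.6% of all such genes were, and of those up to 50 kb 1 of 5, 1 of 3 and 3 of 6, where 22.5% were. What part span had in the list counts was not tested. Among the highest were *Hras* (0.42) and *Grb2* (−0.28), *Map2k2* (0.09), and *Mapkapk2* (0.28) and *Map2k3* (−0.07). The ERK-induced response list had a median of 0.21, with 1 of 11 higher and 1 lower. Its lowest were *Junb* (−0.84, −1.05 to −0.65) and *Fos* (−0.47), and its highest *Myc* (0.52) and *Cd69* (0.34, 0.07 to 0.60). The dissociation and heat stress list had a median of 0.17, with *Jun* (−0.39) and *Btg2* (−0.20) lowest and *Hsp90aa1* (0.60, 0.40 to 0.81) and *Zfp36* (0.46) highest. In DP-like cells, with the background of 8.25% and 29.5% given above, 0 of 13 genes of Ras activation and restraint were higher and 6 lower, 0 of 10 of the ERK cascade were higher and 3 lower, 1 of 12 of the p38 and JNK cascade was higher and 7 lower, and 2 of 10 ERK-induced response genes were higher and 0 lower. All 11 response genes with enough UMIs in early post-selection-like cells span up to 50 kb. Of all genes of up to 5 kb, 21.4% were higher and 7.07% lower in DP-like cells. Of those of 5 to 20 kb, 12.3% were higher and 13.3% lower. What part span had in these DP-like counts was not tested.

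Over the 10 points made by 5 stages and 2 libraries, the genes with the pattern most like each member were found among 8862 genes by Pearson r of log2(CPM + 10). These points share libraries and cells, so the values are a description. *Dusp10* was most like *Fam53b* (0.99), *Rabep1* (0.98) and *Plcxd2* (0.98), and *Spred2* most like *Tram1* (0.99), *Atg4b* (0.97) and *Kcnmb4* (0.97). *Dusp2* was most like *Mtfr1l* (0.93), *Aamp* (0.92) and *Tmem251* (0.91), and *Dusp5* most like *Dennd2d* (0.96), *Rasal3* (0.95) and *Saysd1* (0.95). *Dusp6* was most like *Slc35a1* (0.98), *Dusp1* most like *Zfp52* (0.96) and *Spred1* most like *Shf* (0.95). Among the members themselves *Dusp10* and *Spred2* had the highest value (0.92), and *Dusp2* had values of 0.04 with *Dusp10* and 0.08 with *Spred2*.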

How the data were processed

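Thymus cells of 1 WT and 1 *Eif4g2* cKO mouse were profiled with the DNBelab C4 kit, which tags transcript 3′ ends. The UMI counts per gene and cell were deposited by the authors as unnormalized matrices. The submitters' notes name mm10 and dnbc4tools 2.1.3, while a file header gives version 3.0. Of 4 samples in the series, the 2 cDNA libraries carry the counts and the oligo libraries carry no values of their own. Cells with at least 50 genes and at most 10% mitochondrial UMIs were kept, with a minimum of 1000 UMIs in the files.

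Counts were scaled to 10000 per cell, and 2000 variable genes, 30 components, 20 neighbours and resolution 1.0 (scanpy 1.11.5, leidenalg 0.10.2) gave clusters of all cells and then of T lineage cells. The 10 genes, the pathway lists, *Eif4g2* and the Y-linked genes were left out of the clustering. A cluster was named when at least 3 markers of a list were raised by over 0.5 log2. Scrublet called 0 doublets, which was read as the caller not having worked, so none were removed.

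UMIs were summed by class and library and given as CPM with exact Poisson intervals, ratios with exact conditional binomial intervals and shares with exact binomial intervals (95%, scipy 1.17.1). A gene with 0 UMIs has a limit of 3 UMIs. Counts of genes beyond 0.5 log2 used those with at least 50 UMIs over both sides, and no test was made. The members and lists were chosen with earlier results of these data known. Genes named are the members, *Eif4g2*, *Cd69*, *Egr1* and *Nr4a1*, the 2 highest and 2 lowest of each list in early post-selection-like cells, the 3 genes most like each member with at least 200 UMIs, and leading genes. One gene that this rule names is not reported here. Of the gene identifiers, 97.5% were found in GENCODE M21, and 95.8% of symbols had a RefSeq span. 11 alternatives were tried, with edgeR 4.0.16 used only for TMM scaling factors.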

Additional observations from a re-analysis of the deposited data

Results flagged for a closer look

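*Dusp10* moved in opposite directions between DP-like and early post-selection-like cells of the libraries. Its log2 ratio was 0.33 (0.14 to 0.53) in WT, from 718 and 329 UMIs, and −0.48 (−0.80 to −0.18) in *Eif4g2* cKO, from 379 and 115 UMIs. Centred on the median of all genes at this step (−0.20 and −0.27), the ratios were 0.54 and −0.21. With that shift the upper limit of the *Eif4g2* cKO interval became positive. The difference between these ratios was not tested, since each genotype is 1 library of 1 mouse.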

How the results depend on the processing

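Of 363 log2 ratios of members recomputed under 11 alternatives, 351 moved by no more than their counting interval, 12 moved further and 0 called values changed sign. The settings of at least 20 UMIs and of no UMI minimum change which genes are counted and cannot change a ratio. Their values are among the 351 and say nothing on stability. *Dusp2* stayed above 0 in early post-selection-like cells (1.38 to 1.96), and *Dusp10* below 0 (−1.27 to −0.87). The ratio of *Dusp5* in mature SP-like cells, not called in the report, went from −0.27 to 0.60 when cells were thinned to 1000 UMIs. Of 120 shares of cells with a UMI, 69 kept within their intervals and 51 moved. The offset that TMM scaling took off all ratios was −0.14 to −0.22, and that of median centring −0.18 to −0.27 log2.

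The counts of members beyond 0.5 moved more. In DP-like cells the members lower in *Eif4g2* cKO went from 2 to 1 under TMM scaling and median centring. They went to 3 with at least 20 UMIs and to 4 without a UMI minimum. Those higher there went from 2 to 3 at resolution 0.6 and 1.6 and with each library clustered alone. They did so too under TMM scaling, median centring and thinning. In early post-selection-like cells those higher went from 1 to 2 at resolution 0.6, with 1000 to 10000 UMIs and at most 3% mitochondrial UMIs, by the mean over cells per 10000, and under TMM scaling and median centring, and those lower went from 2 to 4 at resolution 1.6. In mature SP-like cells those higher went from 2 to 1 at resolution 0.6, with each library clustered alone, with 1000 variable genes and after thinning, and to 4 without a UMI minimum. Those lower there went from 1 to 2 at resolution 0.6, with 1000 variable genes and with the stricter cell filter, and to 3 with each library clustered alone and without a UMI minimum. Between DP-like and early post-selection-like cells, the members higher in WT went from 4 to 7 under median centring, and the members lower in *Eif4g2* cKO from 0 to 1 (*Dusp10*) at resolution 1.6, with each library clustered alone, with the stricter filter and after thinning. The cause of these moves was not tested, and the shares of all genes under the alternatives are not given. No paired analysis was possible because each genotype has 1 library, and for the same reason no replicate could be left out.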
